A study of Mus musculus with 8 samples.

Results

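The accessible chromatin at 10 genes of Notch and Jagged signalling was examined in the mouse lens: the receptors Notch1, Notch2 and Notch3, the ligands Jag1, Jag2 and Dll1, the nuclear factor Rbpj, and the target genes Hes1, Hey1 and Hey2. A locus was the RefSeq gene body with 50 kb on each side, in the GRCm38 assembly, which is also called mm10. All peaks that overlapped a locus were taken from the 4 pooled peak lists, 784 peaks in all. Peaks of the 4 lists that lay within 10 bp of each other were joined, which gave 370 regions at the 10 loci, of 185271 regions in the genome. They are 10 of 21774 protein-coding genes and were chosen by name for their roles in sending, receiving or carrying out the Notch signal. No measured value entered that rule, and 43 further genes of the pathway are given more briefly.

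In ATAC-seq, a transposase cuts DNA that is free of nucleosomes and tags it for sequencing, so reads pile up where chromatin is open. The study holds 8 libraries of CD1 mice in 4 groups of 2: lens epithelium and lens fibers of embryos (E14.5), and lens epithelium and lens fibers of newborn mice (P0.5). The groups are called embryonic and newborn epithelium and fibers below. Epithelium and fibers were separated by microdissection, several lenses went into each sample, and no allele, agent or treatment distinguishes the groups. The 2 libraries of a group were pooled before peaks were called with MACS2, so each group is represented by 1 list. No value below has a standard deviation between replicates or a test across replicates. Where intervals are given, they are 95% Wilson intervals, which cover counting error only. The lists do not hold read numbers as such, and the depth behind a peak was not worked out here.

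Within each list, peaks were ordered by fold enrichment, the ratio of reads at the summit of a peak to a background. At the promoters of the genes listed here, the values within a list were whole multiples of a constant. The background there was thus the same within a list, and ranks follow the reads at the summit. The rank was divided by the number of peaks in the list, so that 1% means a place among the strongest 1% of its own list. Fold enrichment itself was not compared between lists. Many peaks share a fold enrichment, and peaks with the same value share a rank. A region takes its best rank in any list, and a region called the strongest below is the strongest in that sense, so another may stand higher in a single list. The largest such tie held 9.57% to 10.98% of the list in the other three groups and 22.1% in newborn fibers, where ranks are therefore coarse. The lists held 100003, 123743, 58592 and 62995 peaks in embryonic epithelium, embryonic fibers, newborn epithelium and newborn fibers. A q value under 0.001 was reached by 48.9% of the newborn fiber peaks and by 80.5% to 87.9% of the peaks in the other lists. Where values of all 4 lists are given in a row, they follow the usual order of embryonic epithelium, embryonic fibers, newborn epithelium and newborn fibers. The dissected tissues were checked against marker genes of their cell types. All 6 fiber markers ranked higher in embryonic fibers than in embryonic epithelium, Cryga, a γ-crystallin, at 1.30% and 87.9%. At P0.5 Cryga had a promoter peak in fibers, at 15.7%, and none in epithelium. Foxe3, Pax6, Cdh1, Pdgfra and Pitx3, markers of lens epithelium, had a promoter peak in all 4 lists, so the presence of a peak did not separate the tissues. Their ranks did not favour epithelium either. At E14.5 only Foxe3 ranked higher in epithelium (4.26%) than in fibers (7.48%). Pax6 stood at 3.73% in embryonic epithelium and 0.479% in embryonic fibers, and Cdh1, Pdgfra and Pitx3 also ranked higher in fibers. At P0.5 Foxe3 and Cdh1 ranked higher in epithelium. Pax6, Pdgfra and Pitx3 ranked higher in fibers, Pitx3 at 1.497% against 8.704% in epithelium. Of markers of other cell types, all 3 of surface epithelium (Krt5, Krt12 and Krt14) lacked a promoter peak in each list, as did Ptprc, which defines leukocytes. Markers of endothelium had promoter peaks for 3, 4, 3 and 2 of 4 genes in the order above, from 13.8% for Tek in embryonic epithelium to 80.6% for Pecam1, which defines endothelium and had one in embryonic fibers only. In the embryonic lists Tek stood at 13.8% and 16.6%, Kdr at 16.8% and 19.5% and Cdh5 at 32.1% and 16.2%. All 3 mesenchyme markers had a promoter peak in each list, at 13.1% or weaker. Macrophage markers had peaks for 2, 2, 1 and 0 of 3 genes and retina markers for 3, 3, 2 and 0 of 3, all at 27.2% or weaker. Of the 2 pigment cell markers, Mitf had a promoter peak in each list and Tyr in none. The part of such cells in the results was not tested. In a dissected tissue, a site that is open in fewer cells cannot be told apart from one that is less open in each cell.

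Notch receptors are membrane proteins that are cut when a ligand of the Jagged or Delta family on a neighbouring cell binds them. The freed intracellular part enters the nucleus and joins RBPJ, which binds DNA at GTGGGAA and related sequences, and turns on target genes such as Hes and Hey, whose products are repressors that bind E-box and related sites. In the lens, Jag1 of newly formed fiber cells is known to signal to Notch receptors in the epithelium, where the pathway helps to keep progenitor cells dividing.

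The 8 stretches of 200 bases shown here carry the findings below and were read from the GRCm38 genome. The first is the stretch that ends at the base before the Hes1 start site, shown because it holds a pair of RBPJ cores. The Hey2 promoter is shown because it holds the highest-ranked peak of any member. The next 3 are the strongest regions outside the promoters of curated RefSeq transcripts at Jag1, Jag2 and Notch2. The last 3 are regions that were called in the lists of only 1 tissue, at both stages. Apart from the first, each is centred on the summit of the strongest peak of its region. Capitals mark the RBPJ consensus GTGGGAA or its core TGGGAA, and the Hes and Hey motifs CACGTG or CACGCG, on either strand.
Hes1, just before the start site, chr16:30065157-30065356, plus strand: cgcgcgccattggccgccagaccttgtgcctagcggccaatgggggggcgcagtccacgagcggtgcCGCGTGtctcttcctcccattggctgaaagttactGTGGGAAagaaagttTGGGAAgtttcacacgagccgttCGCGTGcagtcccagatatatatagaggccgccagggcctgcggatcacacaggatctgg
Hey2 promoter, chr10:30842848-30843047, minus strand: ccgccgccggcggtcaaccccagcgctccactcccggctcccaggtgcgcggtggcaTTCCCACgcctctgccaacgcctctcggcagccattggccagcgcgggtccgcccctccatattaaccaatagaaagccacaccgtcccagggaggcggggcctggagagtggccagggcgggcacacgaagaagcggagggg
Jag1 intron, chr2:137109963-137110162, plus strand: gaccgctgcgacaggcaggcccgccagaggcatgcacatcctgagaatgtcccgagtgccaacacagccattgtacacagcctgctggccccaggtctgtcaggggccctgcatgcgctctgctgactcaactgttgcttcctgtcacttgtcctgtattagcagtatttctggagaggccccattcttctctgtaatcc
Jag2 upstream, chr12:112950455-112950654, plus strand: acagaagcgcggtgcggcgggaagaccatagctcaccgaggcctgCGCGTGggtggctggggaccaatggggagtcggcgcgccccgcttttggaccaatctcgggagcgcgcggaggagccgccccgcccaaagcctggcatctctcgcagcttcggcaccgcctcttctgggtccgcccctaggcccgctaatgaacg
Notch2 downstream, chr3:98199753-98199952, plus strand: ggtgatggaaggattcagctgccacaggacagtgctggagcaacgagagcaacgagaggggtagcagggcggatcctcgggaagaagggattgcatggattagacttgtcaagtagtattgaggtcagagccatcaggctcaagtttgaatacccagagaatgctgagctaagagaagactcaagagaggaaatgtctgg
Rbpj upstream, both epithelium lists, chr5:53523180-53523379, plus strand: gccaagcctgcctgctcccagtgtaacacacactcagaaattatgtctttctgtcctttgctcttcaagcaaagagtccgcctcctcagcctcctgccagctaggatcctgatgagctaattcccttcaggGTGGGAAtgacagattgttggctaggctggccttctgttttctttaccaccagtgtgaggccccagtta
Hey1 downstream, both epithelium lists, chr3:8643561-8643760, plus strand: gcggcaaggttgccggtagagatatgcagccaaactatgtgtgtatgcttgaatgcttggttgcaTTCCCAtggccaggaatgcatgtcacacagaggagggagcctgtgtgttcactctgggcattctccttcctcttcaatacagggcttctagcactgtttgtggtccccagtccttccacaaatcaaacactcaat
Hey1 downstream, both fiber lists, chr3:8662150-8662349, plus strand: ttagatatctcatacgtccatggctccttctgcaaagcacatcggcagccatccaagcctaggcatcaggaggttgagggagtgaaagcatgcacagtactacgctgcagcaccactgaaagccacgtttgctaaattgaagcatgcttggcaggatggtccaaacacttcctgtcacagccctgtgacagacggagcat

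Over all 10 loci, the share of regions that each list called was close to the genome's share in embryonic fibers and newborn epithelium and higher in the other lists, but only the newborn fiber excess was as large with equal numbers of peaks. Embryonic epithelium called 206 of the 370 regions (55.7%, interval 50.6 to 60.7), against 49.4% of all regions. Embryonic fibers called 244 (65.9%, 61.0 to 70.6), against 66.1%. Newborn epithelium called 109 (29.5%, 25.04 to 34.3), against 28.0%, and newborn fibers called 133 (35.9%, 31.2 to 41.0), against 30.0%. With the 58592 strongest peaks of each list, embryonic epithelium called 48.3%, against 48.5% of all regions, and newborn fibers 52.1%, against 45.5%. With a q value under 0.001, newborn fibers called 21.8%, against 19.9%. At that q value embryonic epithelium stood further above its background, which was 59.3%, than newborn fibers did above theirs. At Notch1 and Jag2, singled out because newborn fibers called the most regions there, 73 of 141 regions were called (51.8%). The other 8 loci called 60 of 229 (26.2%). Choosing 2 loci by that count lowers the share of the rest, so the 26.2% is no test against the background of 30.0%. Of the 8, Notch3 (47.4%), Hey1 (40.9%), Hey2 (50%) and Dll1 (31.6%) stood above 30.0%, and Notch2, Jag1, Rbpj and Hes1 below it. All 4 lists called 44 regions (11.9%, against 10.9% of all regions), and 193 regions (52.2%, against 59.5%) were called in only 1 list. Median ranks of the called regions were 50.8%, 49.3%, 42.9% and 48.9% in the usual order, against 46.8%, 49.3%, 47.1% and 48.9% of all called regions, so they stood higher than all regions in newborn epithelium and lower in embryonic epithelium. In embryonic epithelium 9.71% of the called regions, in embryonic fibers 8.61%, in newborn epithelium 9.17% and in newborn fibers 9.02% lay in the first 10% of the list, against 10.2% to 11.6% of all called regions.

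Few regions at the 10 loci were called at both stages in 1 tissue and at neither stage in the other. In epithelium these were 2 regions (0.541%), against 2.28% of all regions. In fibers they were 13 regions (3.51%), against 2.43%. The 2 epithelium regions lie at Hey1 and Rbpj, and the 13 fiber regions at Notch1 (5), Jag2 (5), Hey1 (2) and Notch3 (1). At E14.5, of 305 regions called in either tissue, 61 (20%, 15.9 to 24.8) were called only in epithelium and 99 (32.5%, 27.5 to 37.9) only in fibers. The background was 19.7% and 40.1%. At P0.5, of 193 regions, 60 (31.1%, 24.98 to 37.9) were called only in epithelium and 84 (43.5%, 36.7 to 50.6) only in fibers, against 35.2% and 39.7%. The embryonic fiber share thus lay below the background (21.0% against 24.8% with equal numbers of peaks), and the P0.5 shares held the background inside their intervals. A q value under 0.001 turned the order of the tissues at P0.5, to 51.2% only in epithelium and 23.6% only in fibers, against 51.1% and 18.4% of all regions.

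Between stages, more regions were called only at E14.5 than only at P0.5. In epithelium, 119 of 228 regions (52.2%, 45.7 to 58.6) were called only at E14.5 and 22 (9.65%, 6.46 to 14.2) only at P0.5, against 49.7% and 11.2% of all regions. In fibers, 171 of 304 regions (56.25%, 50.6 to 61.7) were called only at E14.5 and 60 (19.7%, 15.7 to 24.6) only at P0.5, against 62.6% and 17.6%. The embryonic lists are the longer ones, and these shares move with list length. With the 58592 strongest peaks of each list, 24.1% of the epithelial regions were called only at E14.5 and 22.1% only at P0.5, against 27.0% and 22.4% of all regions. Likewise 36.5% of the fiber regions were called only at E14.5 and 38.5% only at P0.5, against 40.5% and 33.0% of all regions.

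The single loci differed more than their sum. The plot of region shares by locus gives the share that each list called at each gene. Across the 14453 protein-coding loci with at least 8 regions, 90% of shares lay between 27.5% and 76.0% in embryonic epithelium, 40% and 91.7% in embryonic fibers, 12.5% and 53.3% in newborn epithelium, and 12.5% and 61.5% in newborn fibers. Of the 40 shares of the members, 4 (10%) lay outside these ranges, as many as the ranges leave for all loci. These were Jag1 in embryonic fibers and Hes1 in newborn epithelium above, and Jag1 and Rbpj in newborn fibers below.

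**Figure D1:**
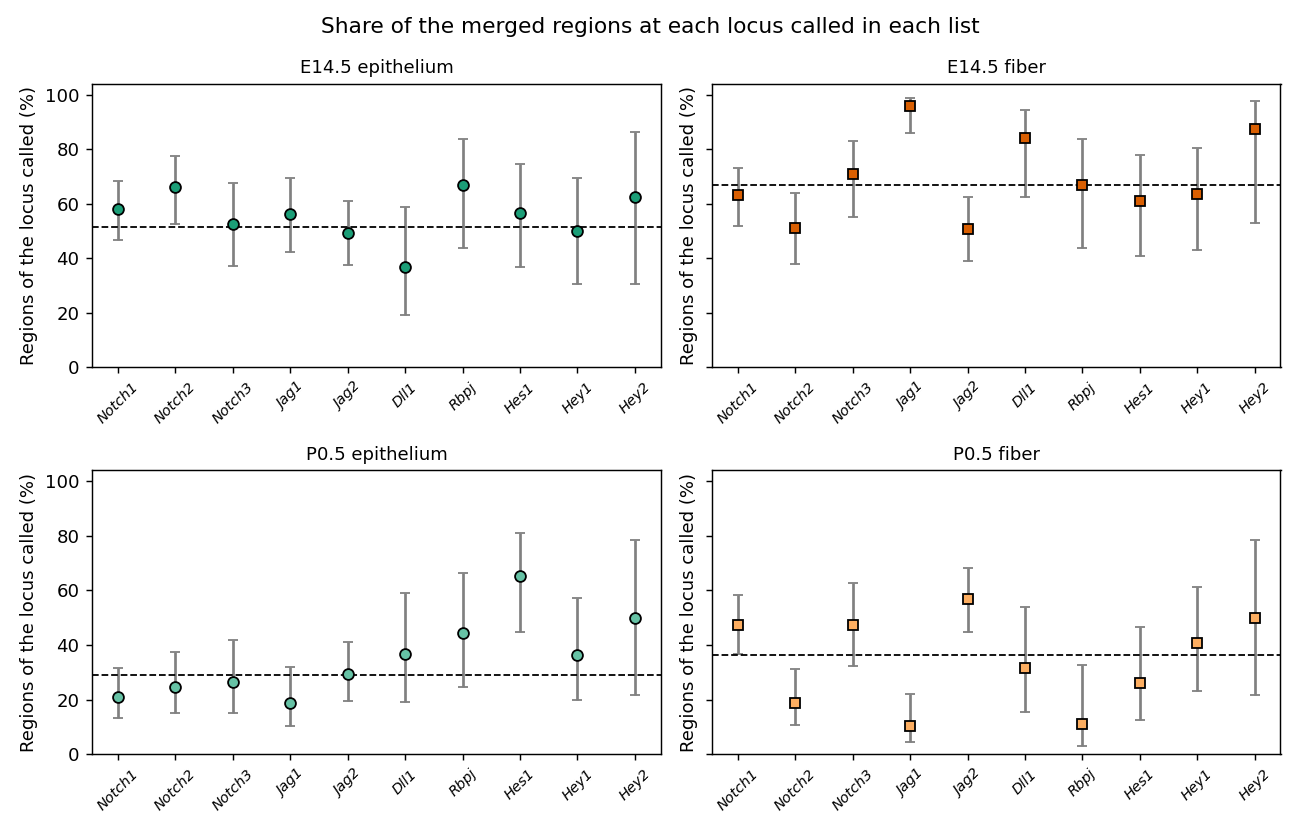
Each panel is 1 pooled list and plots, for each of the 10 genes on the horizontal axis, the percent of the merged regions at its locus that the list called, with 95% Wilson intervals as error bars and the median of 14453 loci as a dashed line. In embryonic fibers Jag1 stands at 95.8%, and in newborn fibers Jag1 and Rbpj stand at 10.4% and 11.1%, while Hes1 is highest in newborn epithelium at 65.2%.

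All 10 genes had a peak within 2 kb of a curated RefSeq start site in all 4 lists. Of 21000 protein-coding genes, 70.3%, 71.2%, 67.0% and 64.6% had such a promoter peak in embryonic epithelium, embryonic fibers, newborn epithelium and newborn fibers. In the first 5% of the list were the promoter peaks of 6, 6, 4 and 4 of the 10 genes, against 24.7%, 30.3%, 14.7% and 16.0% of all genes. Many of all genes had no promoter peak. Among genes with one, 5179 of 14760, 6363 of 14951, 3093 of 14063 and 3360 of 13573 stood there. By role, the target genes and Rbpj ranked highest, and the medians of the 3 target genes were 1.498%, 2.03%, 1.16% and 1.497%. The receptors had medians of 6.95%, 5.79%, 11.8% and 9.32%, and the ligands 17.3%, 7.67%, 19.6% and 12.6%. Medians over all genes with a promoter peak were 7.68%, 6.10%, 12.8% and 10.3%, so Notch3, Jag2 and Dll1 fell behind the typical promoter in each list, as the plot of promoter ranks shows.

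**Figure D2:**
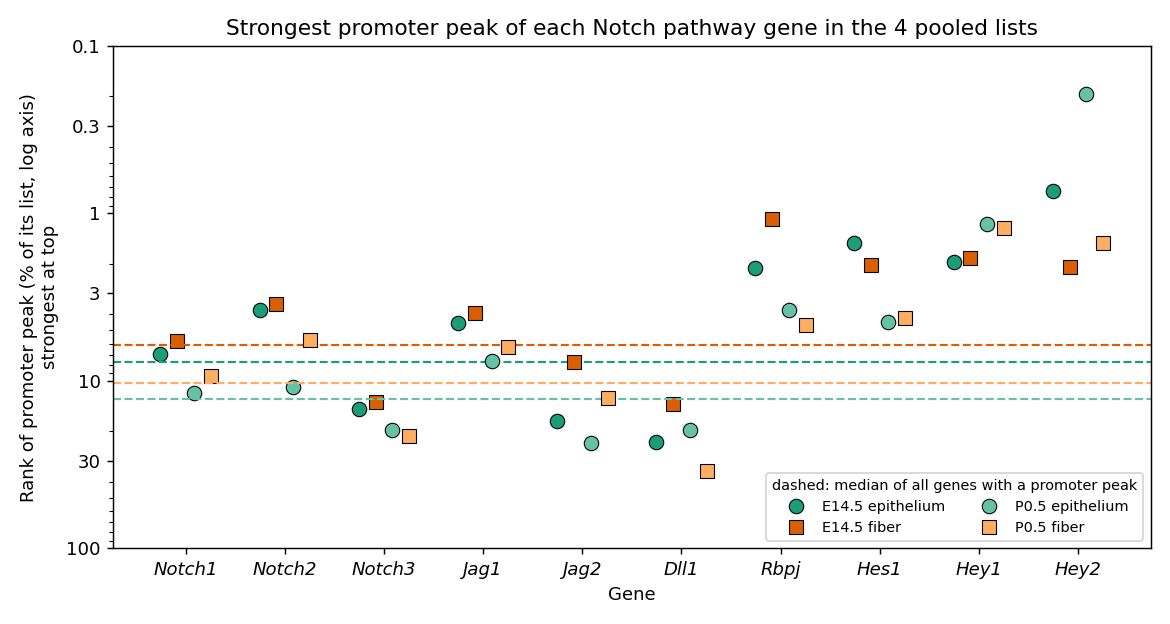
Points give the rank of the strongest promoter peak of each gene as a percent of its list, on a log axis with the strongest peaks at the top, for the 4 pooled lists, and dashed lines give the median over all genes with a promoter peak in the list of the same colour. Hes1, Hey1, Hey2 and Rbpj lie above all 4 lines, and Notch3, Jag2 and Dll1 lie below the line of their list in each case, Hey2 reaching 0.195% in newborn epithelium.

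Notch1, the receptor best known from development and leukaemia, had the most regions, 76 on chromosome 2 around its gene body at chr2:26457902-26503822. Its promoter peak ranked at 6.95% in embryonic epithelium, 5.79% in embryonic fibers, 11.8% in newborn epithelium and 9.32% in newborn fibers, with a width of 1716, 3349, 1107 and 702 bp. The peak was thus widest in fibers at E14.5 and narrowest in fibers at P0.5, while its place in the list stayed near that of the median gene. The median peak of the whole lists was also widest (298 bp) and narrowest (185 bp) there. Of the 76 regions, 44, 48, 16 and 36 were called in the same order. Newborn fibers called more regions than newborn epithelium, 25 of which were called only in fibers and 5 only in epithelium. This excess rested on weak peaks, since a q value under 0.001 left 16 regions in newborn fibers and 13 in newborn epithelium.

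The strongest region of the Notch1 locus outside promoters lay over coding exons near the 3′ end of Notch1 (chr2:26459465-26460775, 44.2 kb from the start). It ranked at 4.38% in embryonic epithelium, 12.7% in embryonic fibers, 13.9% in newborn epithelium and 18.2% in newborn fibers, so epithelium ranked higher than fibers at both stages. An intronic region 2.835 kb from the start (chr2:26499771-26501370) stood higher in embryonic fibers and newborn epithelium, at 10.2%, 7.61%, 10.4% and 18.2%. All 5 regions that both fiber lists and no epithelium list called were weak. The 2 strongest of them were an intronic region 10.9 kb from the start (80.5% in embryonic fibers, 34.7% in newborn fibers) and one 36.95 kb before the start (71.6% and 34.7%). Another, at the promoter of Inpp5e, stood higher in embryonic fibers, at 45.8%, and lower in newborn fibers, at 48.9%. The widest peaks at the locus belonged to the shared promoter of the neighbouring genes Sec16a and 0610009E02Rik. They spanned 2092 bp in embryonic epithelium and 3497 bp in embryonic fibers and ranked at 1.06% and 0.840%.

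Notch2, the receptor whose loss in the lens is known to deplete epithelial progenitors, lies at chr3:98013538-98150367, the longest of the member genes. The promoter peak stood at 3.77% in embryonic epithelium, 3.49% in embryonic fibers, 10.8% in newborn epithelium and 5.69% in newborn fibers. Summits fell between -67 and -104 bp from the start site in all 4 lists, and widths were 1215, 1103, 1112 and 609 bp. Of 53 regions, 35, 27, 13 and 10 were called. In all 4 lists 2 regions were called (3.77%, against 10.9% of all regions), and 16 were called in embryonic epithelium alone (30.2%, against 12.9%).

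The strongest Notch2 region outside the promoter was 186 kb from the start, beyond the 3′ end of the gene and close to the edge of the locus (chr3:98199585-98200058). It ranked at 6.95% in embryonic epithelium, 17.1% in embryonic fibers and 20.5% in newborn epithelium and was not called in newborn fibers. A neighbour 185 kb from the start (chr3:98197534-98198893) had the same calls, at 7.91%, 23.5% and 11.3%. Both regions thus ranked higher in embryonic epithelium than in embryonic fibers, and neither was called in newborn fibers. In embryonic fibers a region 167 kb from the start stood higher, at 11.2%. In all, 9 Notch2 regions (16.98%, against 8.42% of all regions) were called in the other three lists and missed in newborn fibers.

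Notch3, known from vascular smooth muscle, had the weakest promoter of the receptors. The strongest peak within 2 kb stood at 14.8% in embryonic epithelium, 13.3% in embryonic fibers, 19.6% in newborn epithelium and 21.4% in newborn fibers. A pair of peaks was called there in each list, one over the start site and one starting 366 to 797 bp downstream of it. In epithelium the peak over the start was the stronger of the pair, and in fibers the downstream one was. Of 38 regions around chr17:32120820-32166896, 20, 27, 10 and 18 were called in the usual order, and with a q value under 0.001 newborn fibers kept 9. The strongest region outside promoters was 66.5 kb from the start (chr17:32099448-32100876), beyond the 3′ end, at 15.2%, 10.8%, 36.4% and 18.2%. The only region of both fiber lists alone was weak, at 49.3% and 48.9%.

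Jag1, the ligand of newly formed fiber cells, showed the largest change between lists of all members. Of 48 regions around chr2:137081451-137116520, 27 were called in embryonic epithelium (56.25%, 42.3 to 69.3), 46 in embryonic fibers (95.8%, 86.0 to 98.8), 9 in newborn epithelium (18.75%, 10.2 to 31.9) and 5 in newborn fibers (10.4%, 4.53 to 22.2). Embryonic fibers called nearly every region, and newborn fibers almost none beyond the promoter. Among the 14453 loci, 2.63% had as high a share in embryonic fibers and 3.36% as low a share in newborn fibers. At E14.5, 21 regions were called only in fibers and 2 only in epithelium. In fibers, 41 of 46 regions were called only at E14.5 and 0 of 46 only at P0.5, which allows a share of up to 7.71%. With equal numbers of peaks in each list the counts were 12, 20, 9 and 5, and the lead of embryonic fibers over embryonic epithelium fell from 19 regions to 8. No promoter of another gene lies in the Jag1 locus, and all 48 regions are its own promoter, its gene body or its flanks.

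The Jag1 promoter peak ranked at 4.52% in embryonic epithelium, 3.92% in embryonic fibers, 7.57% in newborn epithelium and 6.31% in newborn fibers. These ranks differ little, but the number and width of the called peaks did not stay the same. Peaks of embryonic fibers were the widest in general, with list medians of 226, 298, 209 and 185 bp in the usual order. Whether the change is particular to Jag1 was not tested. In embryonic fibers a peak of 4515 bp, the widest of all members, ran from -1413 to 3101 bp around the start site. Over the same stretch embryonic epithelium had 2 peaks, of 2582 and 1833 bp, newborn epithelium had 4, of 1114, 604, 1542 and 285 bp, and newborn fibers had 4, of 1048, 229, 105 and 1141 bp. The start site itself lay inside a peak only in the embryonic lists. In the newborn lists the strongest peak ended 147 bp before the start in epithelium and 157 bp before it in fibers.

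Beyond the promoter, an intronic region 6.46 kb from the Jag1 start (chr2:137109410-137111486) was called in all 4 lists. It was the strongest region outside the promoter, at 9.74%, 6.20%, 9.96% and 15.7% in the usual order, and in embryonic fibers the peak spanned 2077 bp. The start of a Jag1 transcript model of RefSeq that is not curated lies within 2 kb of it, so it may lie at another Jag1 promoter. Of the other Jag1 regions, 2 were called in all 4 lists. They lay 15.2 kb and 35.3 kb from the start and ranked at 48.9% in newborn fibers. An intronic region 17.01 kb from the start was called in 3 lists, at 8.51%, 12.9% and 22.5%, and was missed in newborn fibers. It stood above the region at 6.46 kb in embryonic epithelium. The map of the Jag1 locus shows how the gene body filled with peaks in embryonic fibers.

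**Figure D3:**
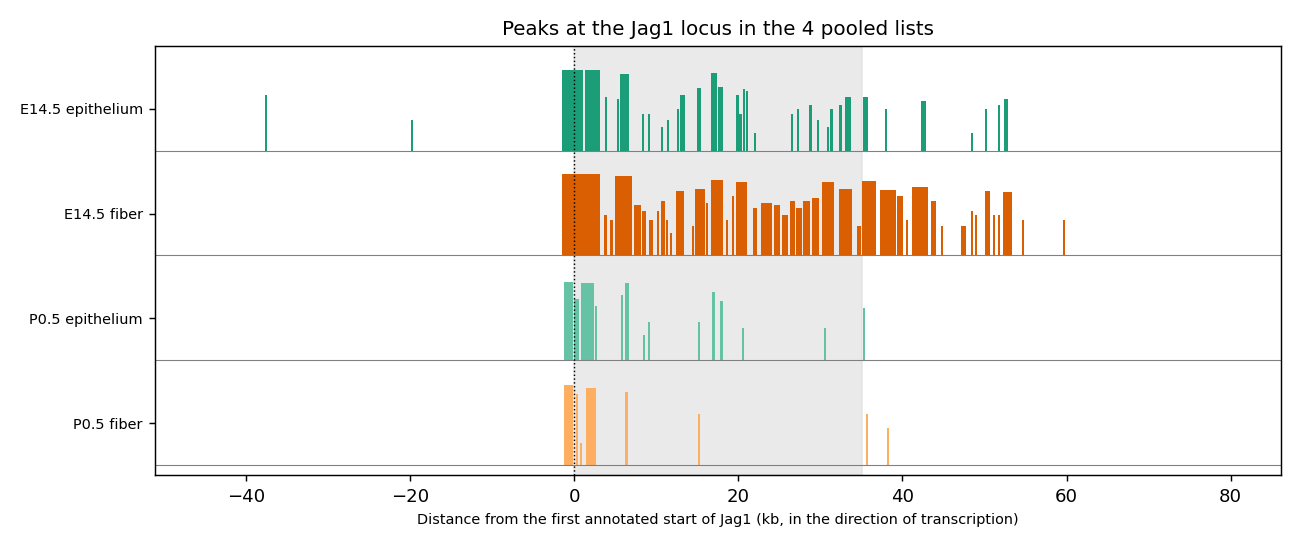
Bars are peaks at the Jag1 locus in the 4 pooled lists, placed by distance in kb from the start site in the direction of transcription, with the gene body in grey, and taller bars rank higher in their list (narrow peaks are drawn 0.25 kb wide). Peaks cover 68.9% of the gene body in embryonic fibers, 31.5% in embryonic epithelium, 12.6% in newborn epithelium and 5.39% in newborn fibers.

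Jag2, a second ligand of the Jagged family, had a promoter that ranked higher in fibers than in epithelium at both stages. Its strongest promoter peak stood at 17.3% in embryonic epithelium and 7.67% in embryonic fibers, and at 23.6% in newborn epithelium and 12.6% in newborn fibers. It was 2041, 2372, 2001 and 2007 bp wide, the only member promoter that kept 2 kb in all 4 lists. In newborn fibers its summit had moved to 949 bp inside the gene, from between -325 and -513 bp in the others. Of the 65 regions around chr12:112907803-112929812, 32, 33, 19 and 37 were called. Newborn fibers called the most, but a q value under 0.001 left 19 there, against 16 in newborn epithelium.

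By its best rank over the lists, the strongest region outside promoters at any member lay 20.7 kb before the Jag2 start (chr12:112948428-112951542). It ranked at 4.44%, 2.77%, 7.95% and 6.31% in the usual order, above the Jag2 promoter itself in each list, while in embryonic epithelium the exonic Notch1 region stood slightly higher, at 4.38%. It lies over Gm26583, a long noncoding RNA gene model of RefSeq without a curated transcript, and GC made up 69.5% of the 200 bases at its summit. In embryonic fibers the peak spanned 2663 bp. Of the 5 regions that only the fiber lists called at both stages, the strongest was 31.9 kb before the start in an intron of Brf1 (58.1% and 12.6%), and the second was next to Mir6941 (90.1% and 48.9%). Neighbouring promoters in the locus, those of Nudt14 and Btbd6, held peaks in all 4 lists, at 21.4% or stronger.

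Dll1, a Delta ligand that acts in neural and somite development, had the weakest promoter of the members in both embryonic lists and in newborn fibers. The peak stood at 23.3% in embryonic epithelium, 13.8% in embryonic fibers, 19.6% in newborn epithelium and 34.7% in newborn fibers. In embryonic fibers it was a peak of 2472 bp across both annotated start sites. In newborn fibers the same stretch held 5 short peaks of 107 to 266 bp and none ranked above 34.7%. Peaks of that list were short in general, with a median width of 185 bp. Of 19 regions around chr17:15367354-15376932, 7, 16, 7 and 6 were called. All 7 regions of embryonic epithelium were also called in embryonic fibers, which had 9 further ones. Outside promoters the strongest was 33.7 kb from the start (chr17:15343060-15343678), at 18.3%, 11.7%, 42.9% and 26.4%. The promoter of the neighbour Fam120b, 19.2 kb before the start, ranked at 7.35%, 8.43%, 10.4% and 48.9%.

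Rbpj, which encodes the DNA-binding partner of all Notch receptors, was open at its downstream start sites only. RefSeq places start sites at 53555779, 53590346 and 53590486 on chromosome 5. No list had a peak within 2 kb of the first. At the other sites the promoter peak ranked at 2.12% in embryonic epithelium, 1.08% in embryonic fibers, 3.76% in newborn epithelium and 4.64% in newborn fibers, with widths of 2772, 3289, 2730 and 1788 bp. Summits lay within 84 bp of the nearer site in all 4 lists.

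Of the 18 Rbpj regions, 12 were called in embryonic epithelium, 12 in embryonic fibers, 8 in newborn epithelium and 2 in newborn fibers (11.1%, 3.102 to 32.8). The 2 regions of newborn fibers were the promoter and one that no other list called. Among the 14453 loci, 4.33% had as low a share in newborn fibers. At P0.5, 7 of 9 regions were called only in epithelium. With equal numbers of peaks the counts were 8, 7, 8 and 2. Outside the promoter the strongest region was 117 kb from the first start (chr5:53672324-53672636), at 16.4%, 11.1% and 31.6%, with no peak in newborn fibers. The region 32.5 kb before the first start (chr5:53523063-53523428) was called in both epithelium lists, at 50.8% and 31.6%, and in no fiber list. Its 200 bases, printed above, hold GTGGGAA.

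Hes1, the repressor through which Notch acts in many progenitor cells, had its strongest peak upstream of the start site rather than over it. The peak stood at 1.498% in embryonic epithelium, 2.03% in embryonic fibers, 4.44% in newborn epithelium and 4.22% in newborn fibers, with summits between -1203 and -1272 bp. In embryonic fibers this peak of 2899 bp reached 102 bp past the start. In the other lists a separate peak covered the start, of 2470 bp at 2.01% in embryonic epithelium, of 386 bp at 4.88% in newborn epithelium and of 245 bp at 26.4% in newborn fibers. At P0.5 the peak over the start thus ranked higher in epithelium than in fibers, while the upstream peak ranked alike.

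The stretch just before the Hes1 start, the first of the printed sequences, lies fully inside peaks in the other three lists and for 197 of its 200 bases in newborn fibers. It holds 2 RBPJ cores on the same strand, whose first bases are at -97 and -83, the first within GTGGGAA, and CACGCG on the opposite strand, from -133 and -60. Of 26242 curated start sites of protein-coding genes, 4.14% have GTGGGAA, 16.6% have TGGGAA and 14.2% have CACGTG or CACGCG in the 200 bases before them, and 29 (0.111%) have 2 copies of TGGGAA on 1 strand within 20 bases. Bound protein was not measured here.

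At the Hes1 locus around chr16:30065357-30067796, 23 regions were found, and 13, 14, 15 and 6 were called in the usual order. Newborn epithelium (65.2%, 44.9 to 81.2) called the most, although its list was the shortest, and 1.37% of the 14453 loci had as high a share there. At P0.5, 12 of 18 regions were called only in epithelium and 3 only in fibers, and at E14.5 only 2 and 3 of 16. With equal numbers of peaks the counts were 8, 5, 15 and 5, and with a q value under 0.001 they were 12, 13, 15 and 2. The maps of the Notch2, Rbpj and Hes1 loci show the sparse newborn fiber list beside the other three.

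**Figure D4:**
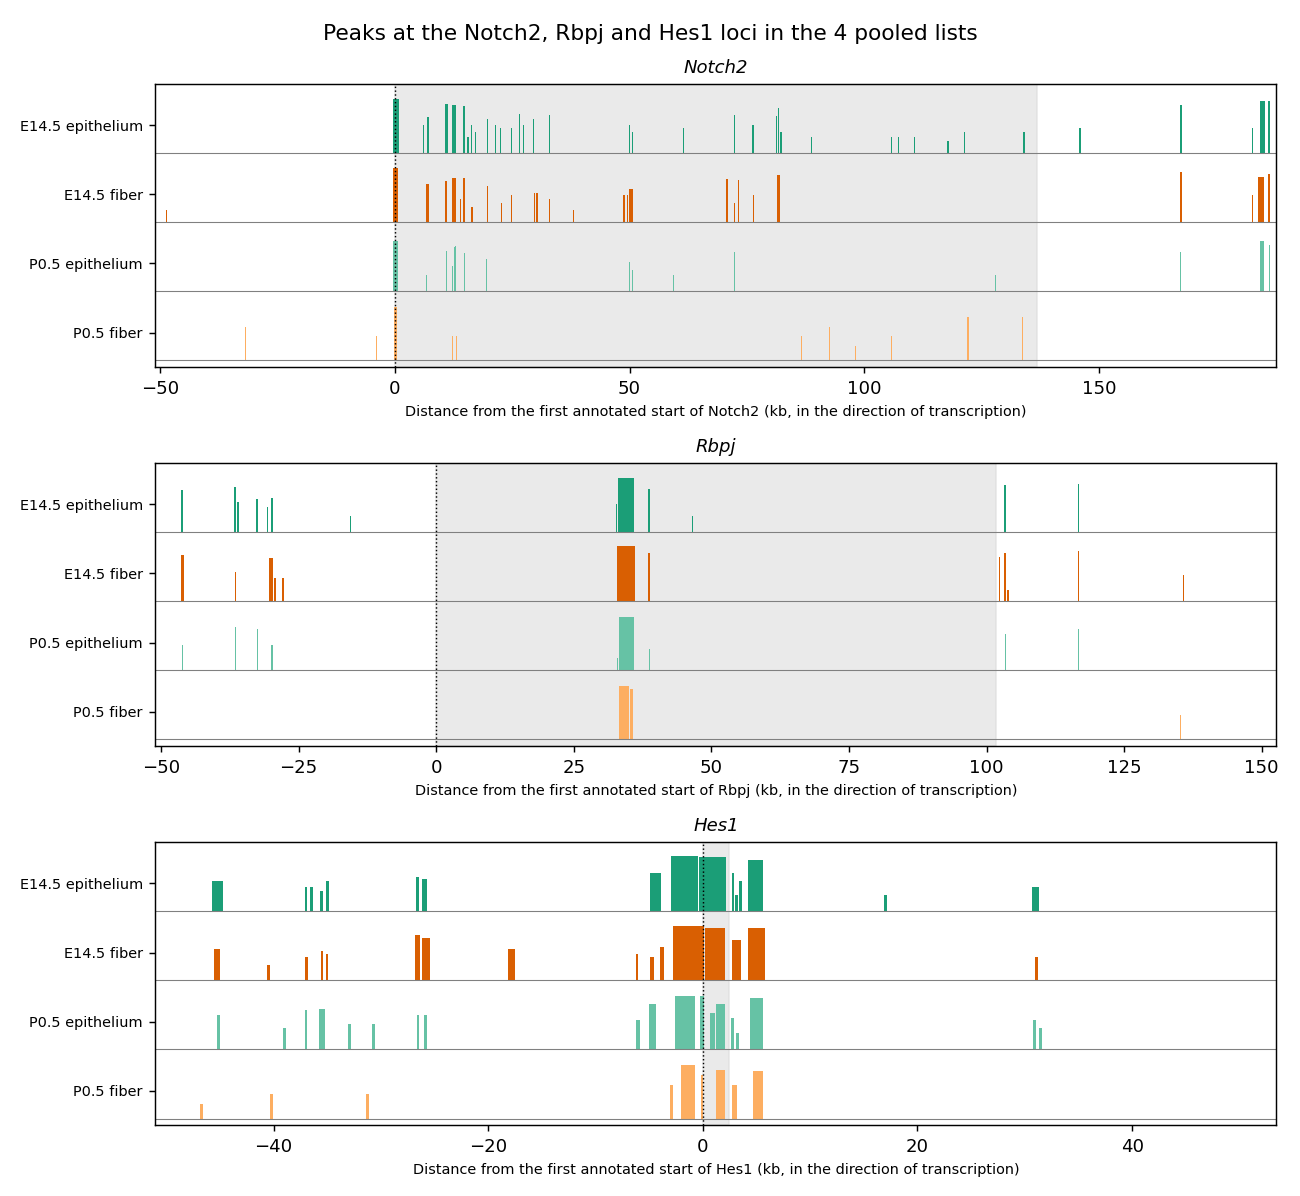
Bars are peaks at the Notch2, Rbpj and Hes1 loci in the 4 pooled lists by distance in kb from the first annotated start, with the gene body in grey and taller bars for higher ranks (narrow peaks are drawn 0.25 kb wide). Downstream of Notch2 a pair of regions at 185 and 186 kb is present in the other three lists and missing in newborn fibers, Rbpj has 2 regions in newborn fibers, and Hes1 has 15 regions in newborn epithelium and 6 in newborn fibers.

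Hey1, a repressor of the same class as Hes1 that also responds to Notch, had a promoter among the strongest of each list. The peak ranked at 1.95% in embryonic epithelium, 1.85% in embryonic fibers, 1.16% in newborn epithelium and 1.22% in newborn fibers, with widths of 1608, 2522, 1578 and 1172 bp. Hey1 and Hey2 are the only members whose promoters stood higher at P0.5 than at E14.5 in both tissues, in lists of different lengths. Of 22 regions around chr3:8663359-8667038, 11, 14, 8 and 9 were called.

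At Hey1, 3 regions outside the promoter were called in 1 tissue at both stages. A region 23.4 kb from the start (chr3:8643523-8643709) was called only in epithelium, at 21.7% in embryos and 47.1% in newborn mice. The other 2 were called only in fibers, of which the stronger was 4.79 kb from the start (chr3:8662042-8662491), just past the 3′ end, at 49.3% and 26.4%. The weaker one overlaps the last exon of Hey1, 3.103 kb from the start, at 58.1% and 91.3%. All 3 ranked far below the promoter.

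Hey2, the third target repressor, had the highest-ranked promoter peak of the members in both epithelium lists. It stood at 0.736% in embryonic epithelium, 2.096% in embryonic fibers, 0.195% in newborn epithelium and 1.497% in newborn fibers. In newborn epithelium this was rank 114 of 58592 peaks, and 0.804% of genes with a promoter peak stood as high. The peak ranked higher in epithelium than in fibers at both stages and was 2542, 2731, 1371 and 1134 bp wide. Summits lay between -101 and -165 bp from the start, and the printed promoter stretch holds GTGGGAA on the opposite strand of the gene. Only 8 regions were found around chr10:30832359-30842783, of which 5, 7, 4 and 4 were called. Outside promoters the strongest was 31.7 kb from the start (chr10:30810726-30811218), at 10.2%, 5.22%, 39.5% and 26.4%, and it covers a transfer RNA gene, n-TEctc9. The promoter of the neighbour Ncoa7 stood at 5.53%, 3.60%, 4.22% and 7.65%.

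Peaks covered a larger part of the median member gene than of the median gene. The compared genes include those with no promoter peak, while each member has one in each list. Coverage among genes with a promoter peak was not worked out. The median share of the gene body covered was 16.0%, 19.97%, 8.37% and 8.10% in the usual order, against 2.71%, 4.23%, 1.51% and 1.38% for 19631 protein-coding genes with a body of 1 kb or more. The members covered least in embryonic fibers were Rbpj and Notch2. The Rbpj share was equalled or exceeded by 44.8%, 54.3%, 33.2% and 38.8% of genes in the usual order, and that of Notch2 by 30.9%, 42.2%, 43.05% and 54.0%. Without the first 2 kb of each gene, which leaves Hes1 too short to be counted, the medians of the other 9 members were 5.30%, 8.27%, 1.95% and 2.33%. Over their whole gene bodies the same 9 had medians of 14.6%, 14.53%, 8.24% and 7.92%. The medians of 17974 genes without their first 2 kb were 0.454% and 1.13% in the embryonic lists and 0% in both newborn lists. Hes1, 2.44 kb long, had the highest share at 87.7%, 80.0%, 57.0% and 34.1%. Jag1 reached 68.9% in embryonic fibers over 35.1 kb, a share that 1.59% of genes equal or exceed, against 5.39% in newborn fibers, which 21.4% of genes equal or exceed. Jag2 alone of the ligands was covered most in newborn fibers, at 23.0%, against 14.6%, 14.53% and 8.50% in the other lists. Peaks of at least 2 kb made up 2.90% and 4.38% of the member peaks in embryonic epithelium and embryonic fibers, against 1.002% and 2.57% of all peaks. In newborn epithelium there were 2 (1.504%, against 0.230%) and in newborn fibers 1 (0.629%, against 0.194%).

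**Figure D5:**
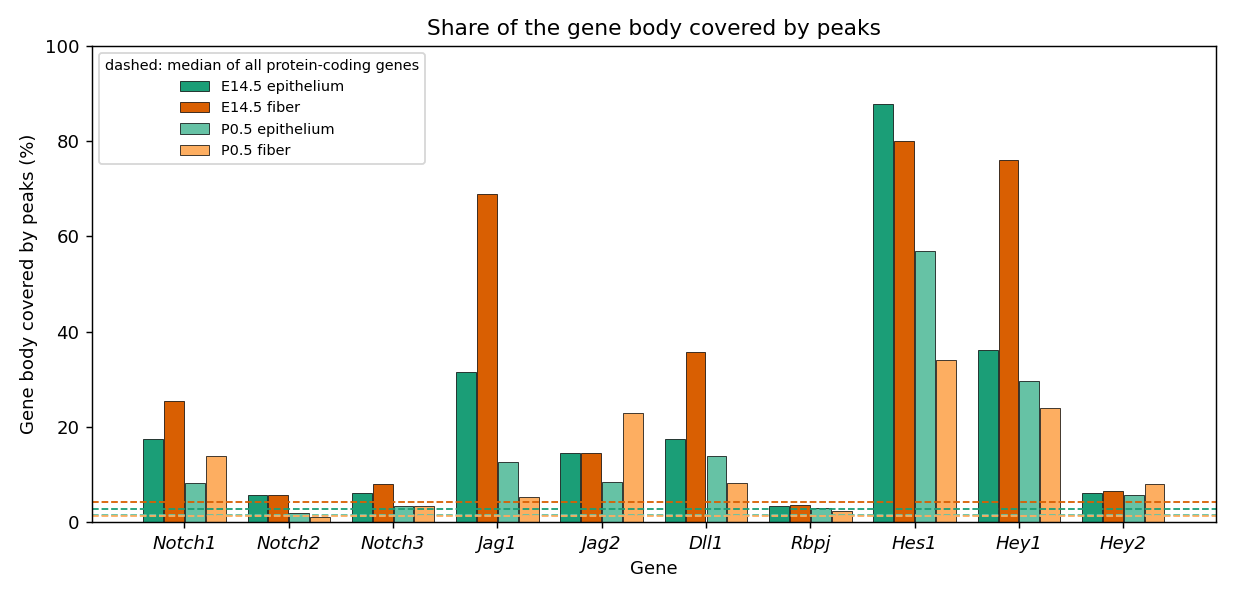
Bars give the percent of each gene body covered by peaks in the 4 pooled lists, and dashed lines give the median over 19631 protein-coding genes. In embryonic fibers Hes1, Hey1 and Jag1 are the members covered most, at 80.0%, 76.1% and 68.9%, and Notch2 and Rbpj stay at 5.80% or less in each list.

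The other 43 genes of the pathway, a list of further receptors, ligands, modifying enzymes, cofactors, regulators and targets, were nearly all open at their promoters. A promoter peak was found for 43, 42, 42 and 42 of them in the usual order, against 70.3%, 71.2%, 67.0% and 64.6% of all genes. The exception was Notch4, a receptor of endothelial cells, which had a weak promoter peak in embryonic epithelium (87.9%) and none in the other lists. In the first 5% of the list stood 17, 20, 8 and 11 of the 43 (39.5%, 46.5%, 18.6% and 25.6%), against 24.7%, 30.3%, 14.7% and 16.0% of all genes, many of which had no promoter peak. Among genes with a promoter peak, their median ranks of 6.84%, 5.17%, 12.8% and 11.4% were near those of all genes.

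Of these 43 genes, 4 had a promoter peak in the first 1% of a list. Adam10, the protease that makes the first cut in a bound Notch receptor, stood at 1.06%, 0.882%, 3.97% and 0.197%, so it was strongest in newborn fibers. Fbxw7, a ubiquitin ligase subunit that marks the cut receptor for destruction, stood at 1.01%, 0.985%, 0.946% and 2.09%. Maml1, the coactivator that joins RBPJ and the cut receptor, reached 0.549% in embryonic fibers, and Numb, an inhibitor of Notch, 0.998% in the same list. The 2 other Delta ligands, Dll3 and Dll4, were weaker, at 21.4% or below in each list. The 5 subunits of γ-secretase, which makes the last cut, had medians of 3.60%, 2.87%, 9.96% and 10.3%.

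The regions at the 10 loci were searched for the RBPJ consensus in the 200 bases at the summit of their strongest peak. GTGGGAA, on either strand, was found in 31 of 370 regions (8.38%, 5.97 to 11.6), against 4.95% of all regions. Its core TGGGAA, which it contains, was found in 22.7% (18.7 to 27.2), an interval that holds the background of 19.01%. The share of the consensus was above the background at 100 bases (4.32% against 2.34%) and at 300 bases (11.1% against 7.44%) too. Matches were spread over the loci, with 5 at Notch2, 5 at Notch3, 4 at Notch1, 4 at Jag1, 4 at Hey1, 3 at Jag2, 2 each at Rbpj, Hes1 and Hey2, and 0 of 19 at Dll1. The Hes and Hey motif CACGTG was found in 4.59%, against 4.41%, and CACGCG in 3.78%, against 2.63%. The intervals of both, 2.89 to 7.23 and 2.27 to 6.25, hold the background.

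The 44 regions called in all 4 lists had a median width of 1431 bp, against 1177 bp for such regions in the genome, and a median GC content at the summit of 63.75%, against 63.5%. Of these, 19 (43.2%) lay at promoters, against 63.9% of such regions in the genome. The 79 regions called only in embryonic fibers were mostly intronic (42, 53.2%, against 59.0%) and had a median GC content of 50.5%, against 51%. Coding exons held 11.1% of the 370 regions, against 5.08% of all regions. The 50 regions called only in newborn fibers included 9 in coding exons (18.0%, against 10.9% of such regions in the genome), of which 4 were at Notch2 and 4 at Jag2. Of the regions called only in embryonic epithelium, 9 of 51 lay there (17.6%, against 5.30%), and of those called only in newborn epithelium 3 of 13, too few to set against the 6.01% of such regions in the genome.

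Some other genes had promoters that ranked much like those of 3 members. Likeness was the Euclidean distance between log10 rank percents over the 4 lists, among 12727 genes with a promoter peak in each. Nearest to Jag1 was Ndfip2 (distance 0.0233), at 4.75%, 4.003%, 7.57% and 6.31%, then Ddx23 and Runx1. Nearest to Notch2 were Fbxo2 and Fbxo44, which share a promoter peak, both at a distance of 0.0388, and then Frs2. Nearest to Hes1 were Tfcp2 (0.0671), Znrf3 and Chmp2a. Within a distance of 0.1 lay 36 genes for Jag1, 24 for Notch2 and 3 for Hes1.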

How the data were processed

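Per the labels, the authors trimmed the reads with Trim Galore 0.4.1, aligned them to mm10 with Bowtie2 2.3.3.1, filtered them with SAMtools 1.2 and Picard 2.1.1, and called peaks with MACS2 2.1 on the pooled libraries of a group at a q value of 0.05. The authors' fold enrichment sets the reads of a summit in ratio to a background, which was the same within a list at the promoters listed. The deposited −log10 p and −log10 q values belong to the same summit. The deposited peak score was not used. Assignment to groups followed the list names, and 0 columns were left unassigned.

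Fold enrichment was turned into a rank within its list. Peaks of the 4 lists were merged at 10 bp with bedtools 2.31.1, and an overlap of 1 bp placed a region at a locus. Promoters were 2 kb on each side of curated RefSeq starts (GRCm38.p6), and gene bodies under 1 kb were left out of coverage. Sequences were read with pysam 0.24.0 and samtools 1.23.1. Tables were handled in python 3.11.15 (pandas 2.3.3, numpy 2.4.6), and figures were drawn with matplotlib 3.10.9. All 2000 simulated merges and 2000 simulated promoter searches came out correct (100%). No test was run, since each group has 1 list.

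Named were all 10 members with their promoter peaks, the strongest region outside promoters (those of 2 genes are not reported here), regions of 1 tissue at both stages (the 2 strongest a gene) and peaks of at least 2 kb, other pathway genes without a promoter peak in some list or within the first 1% of one, neighbours whose promoter held a described peak, and the 3 genes nearest to Jag1, Notch2 and Hes1. The Notch1 region at 2.835 kb, the Notch2 regions at 185 and 167 kb, the region at Inpp5e, the Jag1 regions at 15.2, 17.01 and 35.3 kb, Dll3, Dll4, the placement of the Hes1 sequence, the Hey2 sequence and the search for paired RBPJ cores were chosen after values were seen. The members and lists were chosen with earlier results of these data known. Alternatives were other thresholds, merge distances, flanks, promoter widths, rankings, windows and equal numbers of peaks. Comparisons resting on read signal or expression were not analysed here.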

Additional observations from a re-analysis of the deposited data

Results flagged for a closer look

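At 3 loci the difference in regions called between fibers and epithelium had opposite signs at the stages. Each stage has 1 pooled list per tissue, so the difference between stages was not tested. At Jag1, embryonic fibers called 19 more regions than embryonic epithelium, and at P0.5 the difference was -4. At Dll1 the differences were 9 and -1. At Hes1 they were 1 and -9. With equal numbers of peaks in each list, Jag1 (8 and -4) and Dll1 (2 and -1) kept opposite signs and Hes1 (-3 and -10) did not. With a q value under 0.001 the differences were 17 and -6 at Jag1, 7 and -4 at Dll1, and 1 and -13 at Hes1. With that q value Notch3 (1 and -1), Jag2 (-3 and 3), Rbpj (1 and -7) and Hey1 (6 and -4) had opposite signs too, and with equal numbers of peaks so did Notch1 (-3 and 15) and Jag2 (-2 and 15). The P0.5 difference at Dll1 and the E14.5 difference at Hes1 rest on a single region.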

How the results depend on the processing

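Of 150 summary values recomputed under the alternatives, 122 stayed within the interval of the reported value or within 1.5 times of it, and 28 moved. Other merge distances (0 and 100 bp), a promoter of 1 kb, predicted transcripts, a window of 300 bases and summits inside the locus moved none of their summary values. Ranks by −log10 p moved none either. At the promoters listed, equal fold enrichment came with equal −log10 q within a list, so that ranking could hardly differ. With a q value under 0.001, the share of regions called was 63.9% in embryonic epithelium, 73.0% in embryonic fibers and 21.8% in newborn fibers, against 59.3%, 72.5% and 19.9% of all regions. Regions called only in newborn epithelium and only in newborn fibers then made up 51.2% and 23.6%, which turned the order of the tissues at P0.5, and fiber regions only at E14.5 and only at P0.5 72.9% and 9.17%, against 74.3% and 6.68% of all regions. The median promoter rank in newborn fibers was 12.3%. With equal numbers of peaks, 234 regions remained, and the lists called 48.3%, 50.4%, 47.0% and 52.1% of them, against 48.5%, 51.2%, 45.6% and 45.5% of all regions. Regions only in embryonic fibers against epithelium were 21.0% (background 24.8%), epithelial regions only at E14.5 and only at P0.5 24.1% and 22.1% (27.0% and 22.4%), and fiber regions 36.5% and 38.5% (40.5% and 33.0%), so that the lead of E14.5 was no longer present in fibers. Median promoter ranks were then 7.08% in embryonic epithelium and 7.82% in embryonic fibers, as percents of shorter lists. Flanks of 10 and 100 kb gave 211 and 568 regions. Gene bodies without their first 2 kb, Hes1 left out as too short, had median coverages of 5.30%, 8.27%, 1.95% and 2.33%. The RBPJ consensus was found in 4.32% of windows of 100 bases and its core in 22.7% of those of 200. Of 556 values of single genes, 435 did not move by over 1.5 times. No paired analysis was possible because the libraries of a group were pooled in 1 list, and for the same reason no library could be left out.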
